A study of Mus musculus with 6 samples.

Results

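The mitochondrial genome encodes 7 subunits of complex I, the NADH dehydrogenase of the respiratory chain, and cytochrome b, the core of complex III. These 8 genes are mt-Nd1, mt-Nd2, mt-Nd3, mt-Nd4, mt-Nd4l, mt-Nd5, mt-Nd6 and mt-Cytb, and they were taken by name from a table of 21686 genes. They were selected on measured values of these same libraries, since mt-Cytb and mt-Nd2 had been seen to be lower with dexamethasone. For these 8 genes the comparison of dexamethasone with control is therefore a description, and no test of it is used.

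RNA was measured in MC3T3-E1 Subclone 14 cells, an osteoblast precursor line from mouse. There were 3 groups of 2 libraries, each sampled at 72 h. The control received 100 µL of PBS, the dexamethasone group received 10 µM dexamethasone, a synthetic glucocorticoid, and the dexamethasone + EPC-EVs group received 10 µM dexamethasone and 100 µg of EPC-EVs, as the sample labels give the dose. EPC-EVs are extracellular vesicles from mouse bone marrow endothelial progenitor cells. No group received EPC-EVs without dexamethasone, all cells were of a clonal line, and the study's results text calls the 2 libraries of a group biological replicates. Whether they came from separate cultures is not given in the sources used here, so p-values measure the spread between these libraries.

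Complex I takes electrons from NADH to ubiquinone and pumps protons out of the mitochondrial matrix, and complex III passes the electrons on from ubiquinol to cytochrome c. Both are built from subunits of nuclear and of mitochondrial origin. The mitochondrial DNA is transcribed from both strands into long RNAs, which are cut into the single mRNAs, tRNAs and rRNAs, so the mRNAs studied here start from shared precursors. The nucleus also holds old copies of mitochondrial DNA, and a read from a copy identical to a mitochondrial gene cannot be assigned by its sequence.

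In the GRCm38 build, with GENCODE vM21 as the annotation, 7 of the 8 genes lie on the plus strand of chromosome M and mt-Nd6 lies on the minus strand. mt-Nd1 spans 2751 to 3707, mt-Nd2 3914 to 4951, mt-Nd3 9459 to 9806, mt-Nd4l 9877 to 10173, mt-Nd4 10167 to 11544, mt-Nd5 11742 to 13565, mt-Nd6 13552 to 14070 and mt-Cytb 14145 to 15288. None has introns. The starts of mt-Nd2 and mt-Cytb, whose lower levels led to the choice of the genes, and of mt-Nd6 are shown to contrast the strands, with the start codon in capitals (GENCODE vM21).
mt-Nd2: ATAaatcctatcacccttgccatc
mt-Cytb: ATGacaaacatacgaaaaacacac
mt-Nd6: ATGaataattatatttttgtttta
The mt-Nd6 mRNA is rich in G, at 28.1%, and poor in C, at 5.97%, whereas the mt-Cytb mRNA holds 12.2% G and 26.9% C. The GC content of the 8 genes ran from 33% in mt-Nd3 to 41.1% in mt-Nd4l. mt-Nd4l and mt-Nd4 overlap by 7 bases on the same strand, and mt-Nd5 and mt-Nd6 overlap by 14 bases on opposite strands. The strand setting of the counting was not given in the sources used here, so reads of mt-Nd5 and mt-Nd6 in that overlap are uncertain.

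Of the 8 genes, 7 match an annotated nuclear transcript over part or all of their length, and for mt-Nd3, mt-Nd4l and mt-Nd4 the match is nearly or fully identical. The exception is mt-Nd1. mt-Nd3 matched Gm28438 (chr1:24612775-24613119, minus strand) over 345 bases with 1 mismatch, T3C, where the position is counted from the first base of mt-Nd3 and the base of mt-Nd3 comes first. The same 30 bases of both are shown with this base in capitals, because no other base of the match separates the genes.
mt-Nd3: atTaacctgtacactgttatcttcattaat
Gm28438: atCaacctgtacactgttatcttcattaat
mt-Nd4l matched Gm10222 (chr1:24612407-24612700, minus strand) over 294 bases with 0 mismatches. The whole mt-Nd4l gene is shown, with the 3 bases outside the copy in capitals, since nearly all of it is shared.
mt-Nd4l: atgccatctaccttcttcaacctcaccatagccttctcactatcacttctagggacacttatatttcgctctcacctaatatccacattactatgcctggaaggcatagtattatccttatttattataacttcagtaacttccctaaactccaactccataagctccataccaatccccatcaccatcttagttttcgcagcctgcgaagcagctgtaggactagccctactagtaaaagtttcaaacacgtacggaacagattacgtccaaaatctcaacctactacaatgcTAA
mt-Nd4 matched Gm28439 (chr1:24611535-24612410, minus strand) over 876 bases with 0 mismatches, and the match ends at base 11042 of chromosome M. The 60 bases around this end show where reads become distinct, with the unmatched bases in capitals.
mt-Nd4: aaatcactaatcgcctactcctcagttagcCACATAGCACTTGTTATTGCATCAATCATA
With the read length of 150 bases, 97% of the windows of mt-Nd3, 98% of those of mt-Nd4l and 59.2% of those of mt-Nd4 were identical to a nuclear transcript. No such window was found in mt-Nd1, mt-Nd2, mt-Nd5, mt-Nd6 or mt-Cytb, whose closest copies reached 96.7% identity for mt-Nd2, 95.2% for mt-Nd5, 93.6% for mt-Nd6 and 92.9% for mt-Cytb. Annotated transcripts were searched, and the rest of the genome was not searched here.

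**Figure D1:**
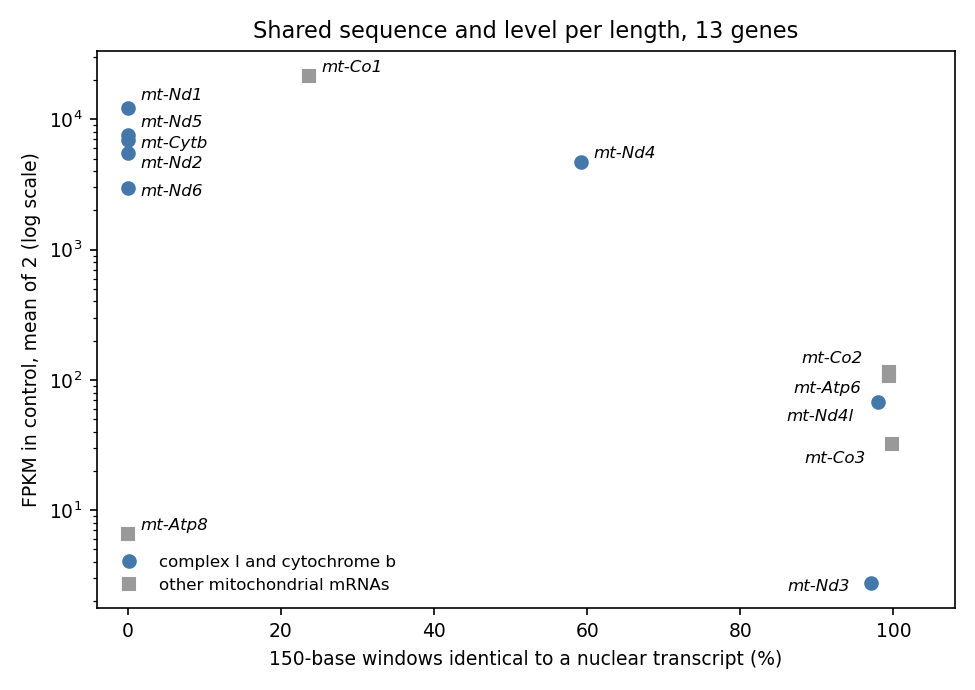
Share of 150-base windows identical to an annotated nuclear transcript (x axis, %) against the mean FPKM of the 2 control libraries (y axis, log scale) for the 13 mitochondrial mRNAs, with circles for complex I and cytochrome b and squares for the other genes. mt-Nd3 and mt-Nd4l sit at the right with 2.79 and 67.6 FPKM, while mt-Nd1, at 0%, sits at 12106 FPKM.

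Levels are compared between genes per length, as FPKM, which are counts scaled to gene length and to the library total. In control, mt-Nd1 had the highest level, 12106 ± 1376 FPKM (SD, n = 2), followed by mt-Nd5 with 7528 ± 273 (SD, n = 2), mt-Cytb with 6930 ± 488 (SD, n = 2), mt-Nd2 with 5489 ± 547 (SD, n = 2), mt-Nd4 with 4728 ± 76.9 (SD, n = 2) and mt-Nd6 with 2997 ± 940 (SD, n = 2). mt-Nd4l was listed at 67.6 ± 3.94 FPKM (SD, n = 2) and mt-Nd3 at 2.79 ± 3.95 FPKM (SD, n = 2), both far below the other 6. These are the 2 of the 8 genes with nearly all of their 150-base windows identical to a copy, whereas mt-Nd6 and mt-Cytb match a copy over nearly their whole length but have no identical window. Among the other mitochondrial mRNAs, mt-Co2, mt-Co3 and mt-Atp6 also shared nearly all windows, at 99.4%, 99.8% and 99.4%, and were listed at 116, 32.3 and 107 FPKM in control. mt-Co1, with 23.6% of its windows identical, was at 21469 FPKM, and mt-Atp8, with no identical window, was at 6.61 FPKM. mt-Nd4l, mt-Nd3 and mt-Atp8 are also the shortest of the 13 genes, at 297, 348 and 204 bases. The part of the shared sequence or of the gene length in these levels was not tested. mt-Nd5 and mt-Cytb were close, at 7335 and 7721 FPKM against 7275 and 6585 FPKM in the control libraries.

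The order changed little with dexamethasone and more with dexamethasone + EPC-EVs. In dexamethasone, mt-Nd1 was again highest, at 8163 ± 131 FPKM (SD, n = 2), and mt-Nd4 (2808 and 2976 FPKM) and mt-Nd2 (2793 and 2504 FPKM) were barely apart. In dexamethasone + EPC-EVs, mt-Cytb came first at 463 ± 375 FPKM (SD, n = 2) and mt-Nd1 was next at 445 ± 126 FPKM (SD, n = 2), a difference within the spread of the libraries. mt-Nd5 at 183 ± 69.4 FPKM and mt-Nd4 at 182 ± 51.1 FPKM (SD, n = 2 each) overlapped in the same way, as did mt-Nd2 at 39.6 ± 22.2 FPKM and mt-Nd6 at 36.8 ± 12 FPKM (SD, n = 2 each).

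Together the 8 genes took 4.53% and 4.87% of all counts in control and 2.74% in each dexamethasone library. With dexamethasone + EPC-EVs they took 0.105% and 0.215%. The groups did not overlap, and the share in dexamethasone + EPC-EVs was the lowest. The 95% Wilson intervals were narrow, from 4.52% to 4.55% in control replicate 1 and from 0.104% to 0.107% in dexamethasone + EPC-EVs replicate 1, and cover counting error only. The means were 4.7 ± 0.242%, 2.74 ± 0.00152% and 0.16 ± 0.0775% (SD, n = 2 each), so the mean share in dexamethasone was 17.1 times that in dexamethasone + EPC-EVs. The ratio was 12.7 without dexamethasone + EPC-EVs replicate 1 and 26.0 without replicate 2. With 2 libraries against 2, an exact two-sided permutation test cannot give a p below 0.333, so the shares were not tested. In RNA from whole cultures, fewer mitochondria-rich cells and less mitochondrial RNA per cell cannot be told apart.

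**Figure D2:**
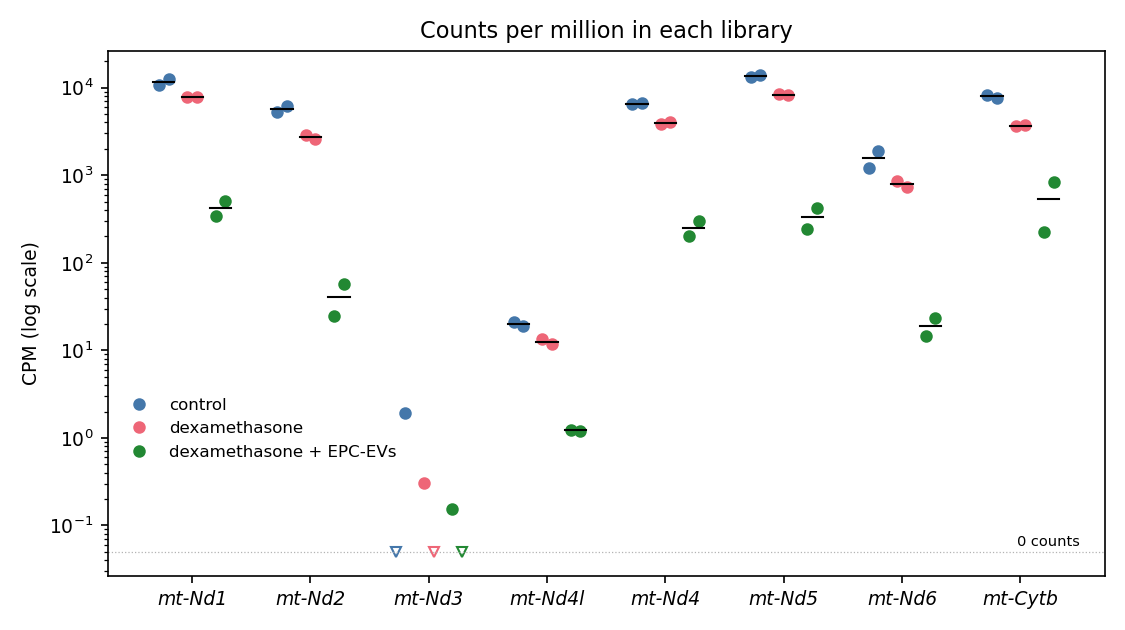
CPM of each gene in each of the 6 libraries (y axis, log scale), with a point for each library, a bar for the mean of a group and open triangles for libraries with 0 counts. For every gene other than mt-Nd3, the 2 dexamethasone + EPC-EVs libraries lie below the 2 dexamethasone libraries, which lie below the control libraries.

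The dexamethasone + EPC-EVs libraries differed from the others in more than mitochondrial RNA. Total counts were 5146760 to 6126888 in control and 6575094 to 6583735 in dexamethasone, against 12864009 to 13182014 with EPC-EVs. A count of 0 allows up to 3 counts, or 0.228 to 0.583 CPM, the counts scaled to library totals. Of 14 listed RNAs that usually lack poly(A) tails, 7 were in the table, all histone genes, and their summed level was 73.4 to 99.6 CPM in control and 94.4 to 110 CPM in dexamethasone, against 328 to 477 CPM with EPC-EVs. Of these 7, 6 were called higher with EPC-EVs than in dexamethasone, where 20.9% of all genes tested were called higher, and 4 were called higher than in control, where 19.1% were. The 9 osteoblast markers summed to 1.59e+04 to 1.7e+04 CPM in control, 1.77e+04 to 1.8e+04 CPM in dexamethasone and 2.26e+04 to 2.87e+04 CPM with EPC-EVs, with Alpl, Ibsp and Bglap at no more than 83 counts in any library. Between dexamethasone + EPC-EVs and dexamethasone, Col1a1, Col1a2 and Sparc were called higher, with log2 fold changes of 1.51, 1.89 and 1.25, and Spp1 was called lower, at -1.06. The 5 of 8 endothelial markers in the table summed to at most 5.39 CPM. Of 6 leukocyte markers, 4 were in the table, and they summed to 18.1 to 25.2 CPM in dexamethasone and 38.1 to 48.9 CPM in dexamethasone + EPC-EVs. Of these 4, Cd14 was called higher, with 21 and 49 counts in dexamethasone and 306 and 425 with EPC-EVs (log2 fold change 2.44), while Lyz2 and Cd68, with log2 fold changes of 0.18 and -0.88, were not called and Adgre1 had at most 1 count in any library. The part of these differences in the results below was not tested, and no label separates a library batch from the treatment, so that the batch and the group cannot be told apart.

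For the 8 genes, dexamethasone + EPC-EVs was first compared with dexamethasone. 6 of the 8 genes were lower and passed the test, mt-Cytb was lower and did not pass, and mt-Nd3 had too few counts to be tested. Across all 13556 genes tested, 18.9% were called lower and 39.8% in either direction, around a median log2 fold change of 0.01. In 7 of the 8 genes both libraries with EPC-EVs lay below both without, as they did in 37.8% of all genes tested. The median over the 7 genes tested, each of which had at least 16 counts in every library, was -4.15 on the log2 scale. A call means an adjusted p under 0.05 in edgeR's quasi-likelihood test, where Benjamini-Hochberg adjustment took in every gene that was tested, and the p-values given for this comparison and the next are from that test. The comparison shares the dexamethasone libraries with the contrast by which the genes were chosen.

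mt-Nd1 encodes a membrane subunit next to the ubiquinone site of complex I. It measured 7724 and 7901 CPM in dexamethasone and 341 and 511 CPM in dexamethasone + EPC-EVs. The libraries with EPC-EVs were far below the others, and the log2 fold change was -4.15 ± 0.185 (SE, adjusted p = 1.2e-07 by edgeR).

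mt-Nd2, mt-Nd4 and mt-Nd5 encode the 3 antiporter-like subunits of the proton-pumping membrane arm. mt-Nd2 measured 2899 and 2599 CPM in dexamethasone and 24.9 and 57.4 CPM in dexamethasone + EPC-EVs. It had the lowest log2 fold change of the 7 genes tested, -6.01 ± 0.494 (SE, adjusted p = 0.00106 by edgeR), and was number 44 from the lowest of the 13556 genes. The 2 libraries with EPC-EVs differed 2.31-fold from each other, and the log2 fold change was -5.51 without replicate 1 and -6.73 without replicate 2 of them. With no filter on low counts the call was lost at a log2 fold change of -5.98 (adjusted p = 0.0501 by edgeR). mt-Nd4 measured 3869 and 4101 CPM against 202 and 301 CPM, a log2 fold change of -3.94 ± 0.185 (SE, adjusted p = 1.46e-07 by edgeR). mt-Nd5 measured 8349 and 8323 CPM against 245 and 424 CPM, a log2 fold change of -4.59 ± 0.265 (SE, adjusted p = 1.23e-05 by edgeR). All 3 were thus lower with EPC-EVs in both libraries, and mt-Nd2 by the most.

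mt-Nd3, mt-Nd4l and mt-Nd6 encode small subunits where the membrane arm joins the arm that binds NADH. mt-Nd6 measured 860 and 725 CPM in dexamethasone and 14.7 and 23.5 CPM with EPC-EVs, a log2 fold change of -5.32 ± 0.221 (SE, adjusted p = 7.54e-08 by edgeR). It is the gene on the other strand, and its change lay between those of mt-Nd5 and mt-Nd2. mt-Nd4l had 88 and 77 counts in dexamethasone and 16 in each library of dexamethasone + EPC-EVs, which is 13.4 and 11.7 CPM against 1.24 and 1.21 CPM, with a log2 fold change of -3.29 ± 0.493 (SE, adjusted p = 0.000329 by edgeR). mt-Nd3 had 0 and 10 counts in control, 2 and 0 in dexamethasone and 2 and 0 in dexamethasone + EPC-EVs, so a difference between the treated groups was not detectable at this depth.

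mt-Cytb encodes cytochrome b, which carries the ubiquinol sites of complex III. It measured 3643 and 3717 CPM in dexamethasone, and 226 and 833 CPM in dexamethasone + EPC-EVs. Both libraries with EPC-EVs were lower, but they differed 3.69-fold from each other, the widest gap among the 7 genes tested. The log2 fold change of -2.74 ± 0.886 (SE) did not pass the test (adjusted p = 0.134 by edgeR). With all 6 libraries in one edgeR fit the adjusted p was 0.0036, and with DESeq2 it was 0.00441, with log2 fold changes of -2.73 and -2.75. Without dexamethasone + EPC-EVs replicate 1 the log2 fold change was -2.07 (adjusted p = 1.05e-13 by edgeR), and without replicate 2 it was -3.97 (adjusted p = 1.91e-31 by edgeR), in fits that take the spread from the group that still had 2 libraries.

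The size of these values depended on a correction that was added once the data had been seen. It takes out of every library a loess trend, fitted on nuclear genes, of the counts against GC content and length. The log2 fold changes were then -2.83 for mt-Nd1, -4.47 for mt-Nd2, -2.43 for mt-Nd4, -2.22 for mt-Nd4l, -3.39 for mt-Nd5, -3.41 for mt-Nd6 and -1.67 for mt-Cytb. The same number of genes, 6, was called, and mt-Cytb again was not (adjusted p = 0.279 by edgeR). Over all genes tested, 4292 of 13544 were called with the correction, against 5397 of 13556 without it. With mitochondrial genes left out of the totals and of the normalization, each log2 fold change moved by at most 0.01.

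The nuclear copies were examined beside the genes they match. In dexamethasone, Gm28439 measured 310 and 289 CPM, against 3.96 and 5.77 CPM with EPC-EVs, a log2 fold change of -5.89 ± 0.204 (SE, adjusted p = 2.93e-08 by edgeR). Gm10222 measured 100 and 102 CPM against 14.7 and 19.3 CPM, a log2 fold change of -2.52 ± 0.203 (SE, adjusted p = 5.46e-06 by edgeR). Both were thus lower with EPC-EVs, as were the genes they match. Gm10222 held 88.2% to 94.1% of the summed counts of itself and mt-Nd4l in the 6 libraries, whereas Gm28439 held 1.88% to 8.25% of its sum with mt-Nd4. Taken as sums, mt-Nd4l with Gm10222 measured 205 and 210 CPM in control, 114 and 113 CPM in dexamethasone and, with EPC-EVs, 15.9 and 20.6 CPM. mt-Nd3 with Gm28438 measured 7.67 and 8.16, 3.34 and 1.37, and 1.32 and 0.303 CPM in the same order, and Gm28438 by itself did not pass the test between the treated groups, with a log2 fold change of -1.53 ± 1.03 (SE, adjusted p = 0.267 by edgeR). The sums kept the order of the groups, and how many of these reads came from either genome cannot be told from the counts.

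**Figure D3:**
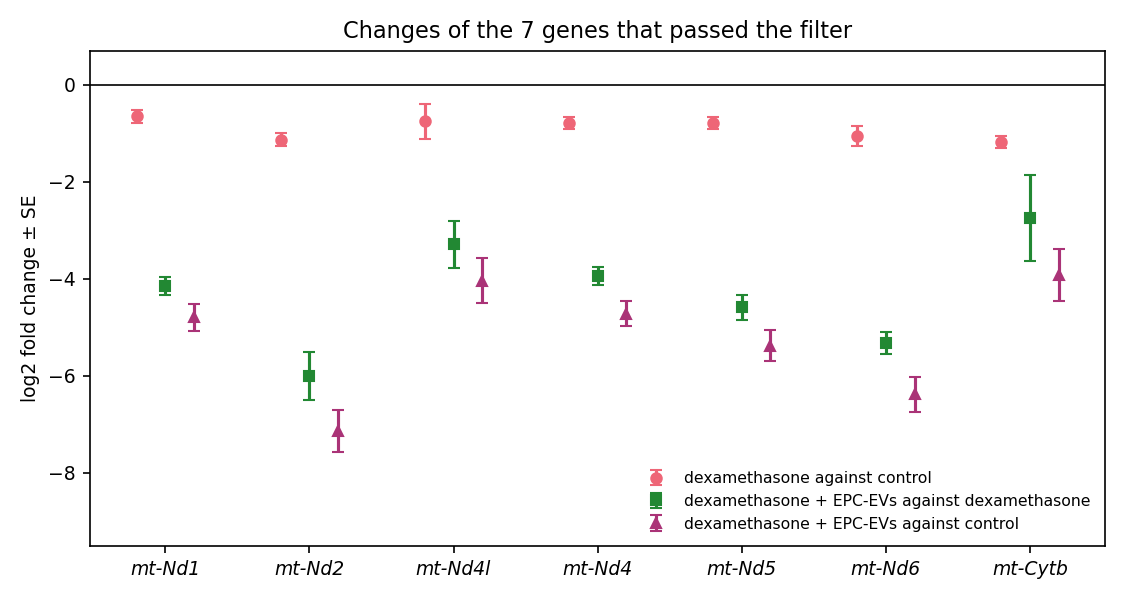
Log2 fold changes with their SE (y axis) of the 7 genes with enough counts, for dexamethasone against control (circles), dexamethasone + EPC-EVs against dexamethasone (squares) and dexamethasone + EPC-EVs against control (triangles). Each point lies below 0, the error bar of mt-Cytb in the second comparison is the longest (0.886), and mt-Nd2 reaches -7.14 in the third.

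The third pair of groups, dexamethasone + EPC-EVs and control, gave larger differences. 7 of the 8 genes were called lower, with mt-Nd3 again not tested, where 17.2% of the 13511 genes tested were called lower and 36.4% in either direction. Both libraries with EPC-EVs lay below both control libraries in 7 of the 8 genes and in 34.6% of all genes tested. The median over the 7 was -4.79 on the log2 scale, against 0.02 over all genes tested. This comparison shares the control libraries with the contrast by which the genes were chosen, and the libraries with EPC-EVs with the comparison above.

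mt-Nd2 went from 5296 and 6099 CPM in control to 24.9 and 57.4 CPM, a log2 fold change of -7.14 ± 0.441 (SE, adjusted p = 8.96e-05 by edgeR), number 31 from the lowest of all genes tested. It was -6.64 without dexamethasone + EPC-EVs replicate 1 and -7.86 without replicate 2. mt-Nd6 went from 1210 and 1901 CPM to 14.7 and 23.5 CPM, a log2 fold change of -6.38 ± 0.361 (SE, adjusted p = 7.29e-05 by edgeR). mt-Nd5 was next, with 13379 and 14083 CPM in control and a log2 fold change of -5.38 ± 0.32 (SE, adjusted p = 7.84e-05 by edgeR).

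mt-Nd1, with 10654 and 12517 CPM in control, had a log2 fold change of -4.79 ± 0.279 (SE, adjusted p = 7.84e-05 by edgeR). mt-Nd4, with 6440 and 6590 CPM in control, had -4.72 ± 0.263 (SE, adjusted p = 7.07e-05 by edgeR), and mt-Nd4l, with 20.9 and 19.2 CPM in control, had -4.04 ± 0.464 (SE, adjusted p = 0.000627 by edgeR). mt-Cytb, with 8322 and 7533 CPM in control, had -3.92 ± 0.538 (SE, adjusted p = 0.00122 by edgeR), the smallest change of the 7. Its call was lost without control replicate 1 (-3.83, adjusted p = 0.0692 by edgeR), without control replicate 2 (-3.96, adjusted p = 0.101 by edgeR) and with no filter (-3.88, adjusted p = 0.171 by edgeR), and the log2 fold change was -3.25 without dexamethasone + EPC-EVs replicate 1 and -5.15 without replicate 2. With the GC and length trend removed, the 7 genes ran from -5.23 in mt-Nd2 to -2.61 in mt-Cytb on the log2 scale. mt-Nd6 was then at -3.93, mt-Nd5 at -3.89, mt-Nd1 at -3.16, mt-Nd4 at -2.86 and mt-Nd4l at -2.63. All 7 were called, as were 3581 of the 13498 genes tested, against 4916 of 13511 without that step.

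Between dexamethasone and control, 7 of the 8 genes had both libraries lower than either control library, which was also so for 17.0% of the 12879 genes tested. This contrast led to the choice of the genes, and nothing is read from that count. mt-Cytb had a log2 fold change of -1.18 ± 0.124 (SE), mt-Nd2 -1.13 ± 0.14 (SE) and mt-Nd6 -1.06 ± 0.208 (SE). The value of mt-Nd6 was -1.35 without control replicate 1 and -0.66 without control replicate 2. mt-Nd5 had -0.80 ± 0.122 (SE), mt-Nd4 -0.79 ± 0.125 (SE), mt-Nd4l -0.75 ± 0.36 (SE) and mt-Nd1 -0.65 ± 0.134 (SE). The values lay between -1.18 and -0.65, with a median of -0.80 against 0.01 over all genes tested, and with the GC and length trend removed the median was -0.50. In control the mean level of mt-Cytb was 2.15 times that in dexamethasone, and that of mt-Nd1 was 1.48 times, on the CPM scale.

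The 5 other mitochondrial mRNAs, for subunits of cytochrome c oxidase and of ATP synthase, were set beside these genes. They took 3.33 ± 0.577% of counts in control, 2.92 ± 0.161% in dexamethasone and, with EPC-EVs, 0.436 ± 0.108% (SD, n = 2 each). The mean share in dexamethasone was thus 6.71 times that in dexamethasone + EPC-EVs, a smaller ratio than the 17.1 of complex I and cytochrome b. It was 5.71 without dexamethasone + EPC-EVs replicate 1 and 8.13 without replicate 2, where complex I and cytochrome b had 12.7 and 26.0, and the difference between the ratios was not tested. Of the 4 tested between dexamethasone + EPC-EVs and dexamethasone, 4 were called lower, where 18.9% of all genes tested were, with a median of -2.41 on the log2 scale. mt-Co1, which made up nearly all of these counts, went from 27981 and 30272 CPM to 3574 and 5102 CPM, a log2 fold change of -2.70 ± 0.162 (SE, adjusted p = 7.99e-07 by edgeR). mt-Atp6 had -4.13 ± 0.341 (SE, adjusted p = 6.12e-06 by edgeR), mt-Co2 -2.13 and mt-Co3 -1.62. Single genes thus crossed between the sets. mt-Atp6 was close to the median of -4.15 of the 7 complex I and cytochrome b genes, and mt-Cytb, at -2.74, was close to mt-Co1. mt-Co2, mt-Co3 and mt-Atp6 each match a nuclear transcript, Gm28661, Gm28437 and Gm10925, with 0 mismatches over nearly their whole length. Summed with Gm28437, mt-Co3 measured 139 and 119 CPM in dexamethasone and 80.6 and 120 CPM with EPC-EVs, which overlap, and Gm28437 by itself had a log2 fold change of -0.12 ± 0.213 (SE, adjusted p = 0.686 by edgeR). The sums of mt-Co2 with Gm28661 (323 and 211 against 74.3 and 77 CPM) and of mt-Atp6 with Gm10925 (525 and 452 against 23.6 and 40 CPM) were lower with EPC-EVs. In dexamethasone against control, mt-Co1 overlapped between the groups, with 29093 and 37247 CPM in control, as did mt-Co3. mt-Atp6, with 69.9 and 76.4 CPM in control and 37.2 and 39.7 CPM in dexamethasone, and mt-Co2, with 76.4 and 82 CPM against 60.8 and 32.5 CPM, were lower in both dexamethasone libraries, with log2 fold changes inside the range of -1.18 to -0.65 of the 7 complex I and cytochrome b genes.

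The make-up of the mitochondrial mRNA counts was then examined. Complex I and cytochrome b held 60.8% and 56.6% of the counts of the 13 mRNAs in control, 49.3% and 47.4% in dexamethasone, and 22.7% and 29.6% with EPC-EVs. mt-Co1 held 39% and 43.2%, 50.5% and 52.4%, and 76.8% and 70.2% in the same order. The share of the 8 genes was thus lower in each step without overlap, and mt-Co1 was higher. Between dexamethasone + EPC-EVs and dexamethasone, 5 of the 8 genes held a lower share without overlap, 0 a higher one, and mt-Nd3, mt-Nd4l and mt-Cytb overlapped. Of the other 5 mRNAs, mt-Atp6 also held a lower share without overlap, mt-Co1 and mt-Co3 held a higher one and mt-Co2 overlapped. mt-Atp8 had 5 and 9 counts in dexamethasone and 0 in both libraries with EPC-EVs, so a difference in its share was not detectable at this depth. Between dexamethasone and control, 6 were lower and mt-Nd3 and mt-Nd4l overlapped, while mt-Atp6 was lower too, mt-Co1 and mt-Co3 were higher and mt-Co2 and mt-Atp8 overlapped. This contrast led to the choice of the 8 genes, so nothing is read from its count or from their share in that step. These shares add up to 100%, so a lower share of some genes requires a higher share of others.

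Between dexamethasone + EPC-EVs and dexamethasone, mt-Nd2 and mt-Nd6 had the lowest log2 ratios of these shares among the 7 genes tested, -2.90 and -2.13. Between dexamethasone and control the lowest were those of mt-Cytb and mt-Nd2, -0.60 and -0.55. The lower levels of these 2 genes in this contrast led to the choice of the set, so nothing is read from their place. mt-Nd2 held 7.1% and 7.08% of the 13 mRNAs in control, 5.23% and 4.5% in dexamethasone, and 0.535% and 0.79% with EPC-EVs. mt-Nd6 held 1.62% and 2.21%, 1.55% and 1.26%, and 0.316% and 0.323%. mt-Nd5 went from 15.1% and 14.4% in dexamethasone to 5.27% and 5.83%, and mt-Nd1 from 13.9% and 13.7% to 7.33% and 7.03%. mt-Cytb did not follow them, with 11.2% and 8.74% in control, 6.57% and 6.44% in dexamethasone, and 4.86% and 11.5% with EPC-EVs. Its value in replicate 2 with EPC-EVs was the highest of the 6 libraries and that in replicate 1 the lowest, so the direction of its share with EPC-EVs rests on which library is read.

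**Figure D4:**
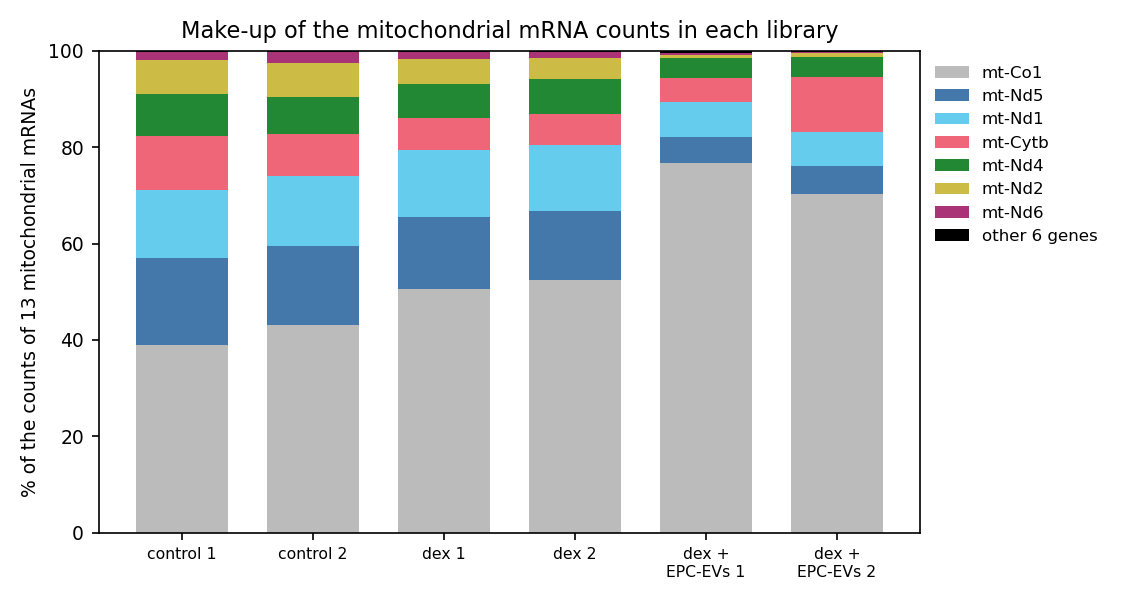
Percent of the counts of the 13 mitochondrial mRNAs (y axis) taken by each gene in each of the 6 libraries, as stacked bars from 0 to 100 (dex, dexamethasone). mt-Co1 at the base grows from 39% and 43.2% in control to 76.8% and 70.2% with EPC-EVs, and mt-Nd2 shrinks to under 1%.

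Nuclear genes of the same complexes were called in both directions. Of 36 nuclear genes for complex I subunits, 12 were called higher and 2 lower with EPC-EVs than under dexamethasone by itself, and their median was 0.47 on the log2 scale, where 20.9% of all genes were called higher and 18.9% lower. Ndufc2, an accessory subunit, rose from 6.23 and 2.89 CPM to 21.1 and 19.3 CPM, a log2 fold change of 2.20 ± 0.401 (SE, adjusted p = 0.0012 by edgeR). Its control libraries were at 3.92 and 9.52 CPM. Ndufv1, the core subunit that binds NADH and FMN, rose by 1.42 ± 0.251 (SE, adjusted p = 0.000975 by edgeR) on the log2 scale. The 2 that fell were the accessory subunits Ndufv3, by 0.98 ± 0.195 (SE, adjusted p = 0.00205 by edgeR), and Ndufb10, by 0.98 ± 0.221 (SE, adjusted p = 0.00438 by edgeR), both on the log2 scale. Against control, 13 of the 36 were called higher, where 19.1% of all genes tested were called higher, with Ndufv1 at 2.12 ± 0.303 (SE, adjusted p = 0.00144 by edgeR) and Ndufb8 at 1.95 ± 0.374 (SE, adjusted p = 0.00475 by edgeR). The other 23 of the 36 were not called in that comparison.

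Of 15 complex I assembly factors, 1 was called higher and 1 lower between dexamethasone + EPC-EVs and dexamethasone, where 20.9% of all genes tested were called higher and 18.9% lower. Foxred1 went from 10.5 and 6.39 CPM to 18.7 and 17.9 CPM, a log2 fold change of 1.17 ± 0.346 (SE, adjusted p = 0.0192 by edgeR). Tmem126b, of the complex that assembles the membrane arm, went from 18.7 and 23.6 CPM to 9.33 and 10.6 CPM, a log2 fold change of -1.04 ± 0.307 (SE, adjusted p = 0.019 by edgeR).

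Of 15 nuclear genes for complex III subunits and assembly, 8 were called higher and 2 lower, and the median was 0.59 on the log2 scale, where 20.9% of all genes tested were called higher and 18.9% lower. Cyc1, which encodes cytochrome c1, rose from 11.1 and 8.37 CPM to 41.6 and 46.6 CPM, a log2 fold change of 2.23 ± 0.254 (SE, adjusted p = 5.21e-05 by edgeR), and the small subunit Uqcrq rose by 2.03 ± 0.258 (SE, adjusted p = 0.000107 by edgeR) on the log2 scale. Uqcrb, a small subunit at the matrix side of complex III, fell from 91.7 and 107 CPM to 12.2 and 17.4 CPM, a log2 fold change of -2.70 ± 0.223 (SE, adjusted p = 6.16e-06 by edgeR). Ttc19, an assembly factor of complex III, had -1.06 ± 0.243 (SE, adjusted p = 0.00497 by edgeR). Uqcrb had the lowest value of the 109 nuclear genes of all these lists that were tested, close to the -2.74 ± 0.886 (SE) of mt-Cytb, the least changed of the 7 mitochondrial genes.

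Genes that make and process mitochondrial RNA were read against all genes tested, of which 20.9% were called higher and 18.9% lower with EPC-EVs than under dexamethasone by itself, and 39.8% in either direction. Of 8 tested for mitochondrial transcription, 2 were called higher with EPC-EVs, among them Polrmt, the mitochondrial RNA polymerase, with 29 and 21 CPM against 36.1 and 45.8 CPM and a log2 fold change of 0.76 ± 0.242 (SE, adjusted p = 0.0267 by edgeR). The other was Tefm, an elongation factor, at 2.40 mean CPM, with 2.43 ± 0.791 (SE, adjusted p = 0.0293 by edgeR). Tfam, the transcription factor that also packs mitochondrial DNA, had a log2 fold change of -0.52 ± 0.265 (SE, adjusted p = 0.14 by edgeR) and did not pass the test. Of 18 for RNA processing and stability, 4 were called higher and 2 lower. Fastk, whose mitochondrial form is known for keeping the mt-Nd6 mRNA, rose from 19.3 and 28.9 CPM to 78.1 and 79.7 CPM, a log2 fold change of 1.76 ± 0.222 (SE, adjusted p = 0.000103 by edgeR), and Tbrg4, of the same family, rose by 1.22 ± 0.263 (SE, adjusted p = 0.00337 by edgeR) on the log2 scale. Trmt10c, a part of mitochondrial RNase P, had a log2 fold change of -1.58 ± 0.371 (SE, adjusted p = 0.00552 by edgeR), and Pnpt1, an RNA-degrading exonuclease, had -1.36 ± 0.279 (SE, adjusted p = 0.00252 by edgeR). Lrpprc, which stabilises mitochondrial mRNAs, had 0.06 ± 0.161 (SE, adjusted p = 0.79 by edgeR).

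Of 10 genes for mitochondrial DNA replication, 1 was called higher and 2 lower, and the median was -0.40 on the log2 scale, where 20.9% of all genes tested were called higher and 18.9% lower. Polg, the DNA polymerase, had a log2 fold change of 1.03 ± 0.204 (SE, adjusted p = 0.00204 by edgeR), Ssbp1, the single-strand binding protein, had -1.18 ± 0.152 (SE, adjusted p = 0.000122 by edgeR), and Primpol, a primase, had -1.54 ± 0.262 (SE, adjusted p = 0.00074 by edgeR). Of 7 regulators of mitochondrial biogenesis, 3 were called higher and 2 lower. Esrra, a nuclear receptor, had 1.47 ± 0.258 (SE, adjusted p = 0.000928 by edgeR) and Nrf1, a factor of nuclear respiratory genes, had 0.74 ± 0.206 (SE, adjusted p = 0.0142 by edgeR), while Gabpb1 and Gabpa, the 2 chains of NRF2, had -1.24 ± 0.227 (SE, adjusted p = 0.00123 by edgeR) and -0.77 ± 0.17 (SE, adjusted p = 0.00389 by edgeR). Ppargc1a had 0.77 ± 0.487 (SE, adjusted p = 0.236 by edgeR) and did not pass.

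Over all 109 nuclear genes tested in these 7 lists, 31 were called higher and 11 lower with EPC-EVs than under dexamethasone by itself, where 20.9% of all genes tested were called higher and 18.9% lower. Against control, 30 were called higher and 9 lower, where 19.1% and 17.2% of all genes tested were, with Cyc1 at 2.87 ± 0.455 (SE, adjusted p = 0.00215 by edgeR) and Uqcrb at -3.03 ± 0.304 (SE, adjusted p = 0.000417 by edgeR). Between dexamethasone and control, 0 of 107 were called by edgeR, where 0.0544% of all genes tested were called in either direction, and 0 by DESeq2, which called 130 genes in all. An unadjusted p under 0.05 in edgeR's test was found for 6 of the 107 and for 1409 of the 12879 genes tested. The 2 mitochondrial rRNAs were not analysed here.

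**Figure D5:**
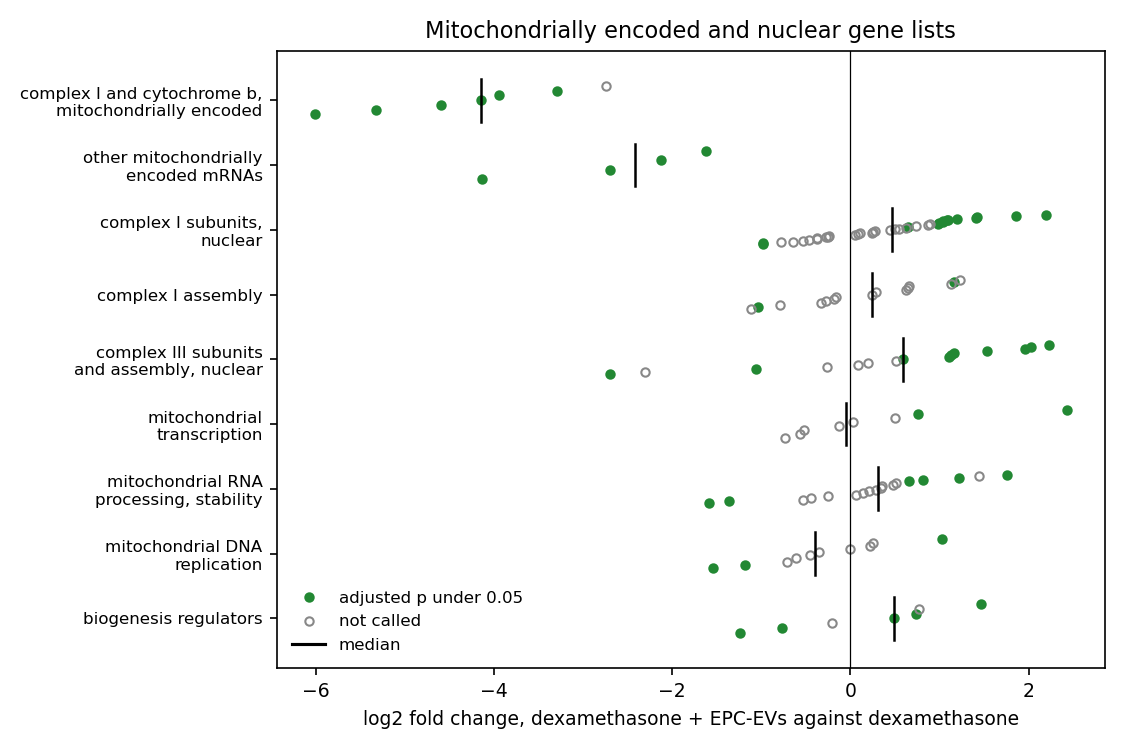
Log2 fold change of dexamethasone + EPC-EVs against dexamethasone (x axis) for each tested gene of the mitochondrially encoded and nuclear lists (rows), with filled points for genes at an adjusted p under 0.05 in edgeR's test, open points for the others and a bar for the median. The mitochondrially encoded genes lie between -6.01 and -1.62, and the nuclear genes between -2.70 and 2.43.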

How the data were processed

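RNA of 6 libraries was analysed, 2 per group, grouped by the sample labels (the series text gives fibroblasts and 48 hours, and the study's text in places a lower dose of EPC-EVs, which were not followed). The authors aligned reads to the mouse genome (GRCm38 per the labels) with HISAT2 and made whole-number counts per gene with HTSeq 0.6.1, which they deposited without normalization. The FPKM values the authors deposited equal these counts over gene length and library total within 0.1%, in each library with a count, in 21686 of 21686 genes. The deposited transcript table was not used, because it holds chromosome 1.

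For each pair of groups, edgeR 4.0.16 (R 4.3.3) was run on the counts of its 4 libraries, with TMM, filterByExpr and the robust quasi-likelihood test, and calls were made at a Benjamini-Hochberg adjusted p under 0.05 over every gene tested. CPM in the text are counts over the library total. SDs are over the 2 libraries of each group, and total counts, with the precision they allow, are given with the results. Within each group the 2 libraries differed beyond sampling noise, their chi-square over degrees of freedom being 16.6 (control), 7.17 (dexamethasone) and 20.1 (dexamethasone + EPC-EVs).

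Copies of the mitochondrial genes were searched with blastn in the GENCODE vM21 transcripts, at 90% identity or more over 100 bases or more. The genes and the lists were chosen with earlier results of these data known. From each nuclear list, the 2 genes that rose most and the 2 that fell most were named, if they were called and averaged 10 CPM or more. Tfam, Tefm, Lrpprc, Ppargc1a, the nuclear copies and the list members that mark cell types were named after their values were seen. The alternatives were edgeR's RLE normalization, scaling to nuclear genes, DESeq2 1.42.0, no filter, all 6 libraries in a joint fit, the replicate number as a block, each library left out, other denominators and the removal of a GC and length trend (loess, span 0.4).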

Additional observations from a re-analysis of the deposited data

How the results depend on the processing

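The number of genes called lower was 6 between dexamethasone + EPC-EVs and dexamethasone and 7 between dexamethasone + EPC-EVs and control. With no filter it was 5 in the former, without mt-Nd2, and 6 in the latter, without mt-Cytb. Over all genes, 5684 of 20877 were called with no filter in the former and 5564 of 20615 in the latter. With the filter these were 5397 of 13556 and 4916 of 13511. The median log2 fold change of dexamethasone against control, -0.798, was -0.496 with the GC and length trend removed, a setting added after the data were seen, and between -0.845 and -0.736 with each library left out. Within the mitochondrial mRNAs, the log2 ratio of the share of mt-Cytb in dexamethasone + EPC-EVs over dexamethasone was 0.198 over the 13 mRNAs and reversed to -0.318 over the 5 mRNAs outside the set. For mt-Nd4l the same ratio moved from -0.0655 to -0.581. Per 100 counts of these 5 mRNAs, mt-Nd4l no longer overlapped between these groups. It was at 0.0476 and 0.0386 in dexamethasone and 0.0346 and 0.0237 with EPC-EVs. The replicate numbers did not pair the libraries, since deviations of libraries with the same number had correlations of 0.0114, 0.00732 and 0.0619 and no label links them. With the replicate number as a block, 6 and 7 genes were called and the median was -0.796, and no call changed. The log2 fold changes of the 7 tested genes kept their direction in all 3 comparisons in each alternative fit, whereas those of the nuclear genes and of the other mitochondrial mRNAs were given from the edgeR fit as reported. With 2 libraries in a group, the depth limits mt-Nd3, at no more than 10 counts in any library, and mt-Nd4l in the libraries with EPC-EVs, at 16 counts each.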

Other observations

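Over the 6 libraries, the 5 genes outside the mitochondrial genome whose log2 CPM followed the summed log2 level of complex I and cytochrome b most closely were Oasl2, Ccdc112, Gm13340, Dnttip2 and Atp7a, with Pearson r of 0.9994, 0.999, 0.9987, 0.998 and 0.9979, as a description over 6 libraries that share 3 groups. Among 9207 genes compared, 933 had an r above 0.95. Oasl2, of the interferon-induced 2'-5' oligoadenylate synthetase family, measured 162 and 157 CPM in control, 148 and 146 CPM in dexamethasone and 69.8 and 82.2 CPM with EPC-EVs. Ccdc112 measured 33.6 and 33.8, 24 and 25.7, and 1.56 and 3.03 CPM in the same order. Gm13340 is itself a nuclear copy, 97.6% identical to mt-Co1. Atp7a, a copper transporter, measured 141 and 140 CPM in control, 131 and 129 CPM in dexamethasone, and 59.8 and 74.7 CPM with EPC-EVs.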
